A study of Homo sapiens with 4 samples.

Results

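DNA methylation and Polycomb repression are main chromatin systems that keep genes silent through cell division, and the genes that run them are often mutated in myeloid leukemia. A set of 10 of their regulators was examined: the maintenance methyltransferase DNMT1 and its recruiting factor UHRF1, the de novo methyltransferases DNMT3A and DNMT3B, the 5-methylcytosine dioxygenases TET1, TET2 and TET3, the Polycomb repressive complex 2 (PRC2) subunits EZH2 and SUZ12, and the Polycomb partner ASXL1. These 10 genes were taken by name from the 60651 genes listed in the deposited files, and all 10 were found, each under 1 gene identifier. The rule uses names and no measured value.

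The study measured ribosome-protected RNA fragments (Ribo-seq), the pieces of mRNA that a translating ribosome shields from nuclease, in 4 human leukemia lines with 1 library per line. K562 is a BCR-ABL1-positive line with erythroid features, grown in IMDM. THP-1 is a monocytic line, grown in RPMI1640 with 0.05 mM 2-mercaptoethanol. MOLM13 is a line of acute myeloid leukemia, grown in DMEM, and HL60 is a promyelocytic line, grown in IMDM. All media held 10% fetal bovine serum, no treatment or genotype is named in the labels, and each line is a long-established culture rather than primary leukemia cells. With 1 library per line no difference has a replicate check, and no test was made.

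DNMT1 copies methylation onto the new strand after replication, and UHRF1 brings it to hemimethylated sites. DNMT3A and DNMT3B, which are close relatives, set new methylation. TET proteins oxidize 5-methylcytosine, which opens the way to its removal. PRC2 trimethylates lysine 27 of histone H3; EZH2 holds the catalytic site and SUZ12 is a scaffold that the complex needs. ASXL1 is a cofactor of BAP1 in the complex that removes ubiquitin from histone H2A, the mark that Polycomb repressive complex 1 sets.

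The following 2 measures are used below. Scaled TPM is the deposited TPM (transcripts per 1000000, which is per length) summed over a gene's transcripts and divided by a factor per library. Aligned bases per 1000000 is coverage times transcript length, scaled likewise but not divided by length; it serves to compare lines for 1 gene, never 1 gene with another. A footprint level joins the amount of an mRNA and the ribosomes on it, which cannot be told apart here, and neither can fewer cells and less RNA per cell. Values in brackets are 95% Poisson intervals, which cover counting error only. The libraries held 16294777 footprint equivalents (aligned bases divided by the fragment length of 29) in K562, 23389310 in THP-1 cells, 11868327 in the MOLM13-labelled library and 33554799 in HL60. Among 12582 protein-coding genes with at least 600 aligned bases in any line, K562 listed 23.0% at 0, THP-1 10.7%, the MOLM13-labelled library 18.5% and HL60 13.9%.

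Marker genes were checked first. All 6 erythroid markers were called high in K562 by the rule given below, against 1.65% of all genes. Of 8 granulocyte and monocyte markers, 7 were called high or low in some line, against 14.2% of all genes. The calls were 3 high in THP-1, 3 high in HL60 and 2 low in K562. Their summed scaled TPM was 4783 in THP-1 cells and 7308 in HL60, against 27.6 in the MOLM13-labelled library and 0.050 in K562. Part of the markers went against the label of the MOLM13-labelled library. Its deposited file carries another name, it listed FLT3 and MEIS1, genes this type of leukemia is known for, at 0, and CD3D, a T cell receptor subunit, had 882 scaled TPM there, against 49.3 in K562, 3.89 in THP-1 cells and 3.36 in HL60. Of the 4 T cell and B cell markers with enough coverage, 2 were called high there, against 1.8% of all genes, and 1 in HL60. The granulocyte and monocyte sum given above was also low there, against THP-1 and HL60. Other values did not go against the label. The 4 genes of KMT2A-rearranged leukemia summed to 45.3 scaled TPM there, all of it HOXA9 and HOXA10, against 6.12 in K562, 36.7 in THP-1 cells and 5.52 in HL60. Of all 6 T cell and B cell markers, 4 were at 0 there, as many as in each other line. The library is therefore named by its label alone throughout, and counts are given with and without it where it matters.

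DNMT1 had the highest scaled TPM of the 10 genes in every line but K562, where EZH2 was above it, and the maintenance pair shared its highest and its lowest line. DNMT1 (chr19:10133342-10231286, minus strand, hg38) had 37.1 [35.9 to 38.3] scaled TPM in K562, 81.8 [80.2 to 83.5] in THP-1 cells, 61.4 [59.6 to 63.3] in the MOLM13-labelled library and 55.2 [54.2 to 56.3] in HL60. UHRF1 (chr19:4903080-4962154, plus strand) had 23.3 [22.1 to 24.5] scaled TPM in K562, 51.1 [49.4 to 52.8] in THP-1 cells, 29.2 [27.6 to 30.8] in the MOLM13-labelled library and 36.6 [35.4 to 37.9] in HL60. Both were highest in THP-1 cells and lowest in K562. This order of ends held for 2 of the 10 genes and for 8.77% of the 12582 genes; it was picked out after the values were seen. By scaled TPM, no neighbouring lines had overlapping intervals for either gene. By aligned bases per 1000000, UHRF1 intervals overlapped between K562 [84.9 to 94.0] and the MOLM13-labelled library [93.1 to 103.8]. They also overlapped between that library and HL60 [102.9 to 110.1]. The assigned transcripts of UHRF1 differed too, with 100% of aligned bases on one of 4309 bases in K562 and 66.3% on one of 2651 bases in HL60. The highest level was 2.21 times the lowest for DNMT1 and 2.19 times for UHRF1, and by aligned bases per 1000000 1.97 and 1.77 times. The ratio of UHRF1 to DNMT1 in scaled TPM was 0.63 in K562, 0.62 in THP-1 cells, 0.48 in the MOLM13-labelled library and 0.66 in HL60. UHRF2, the paralog of UHRF1, had 3.89 scaled TPM in K562, 12.4 in THP-1 cells, 14.02 in the MOLM13-labelled library and 7.56 in HL60, so it too was lowest in K562.

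**Figure D1:**
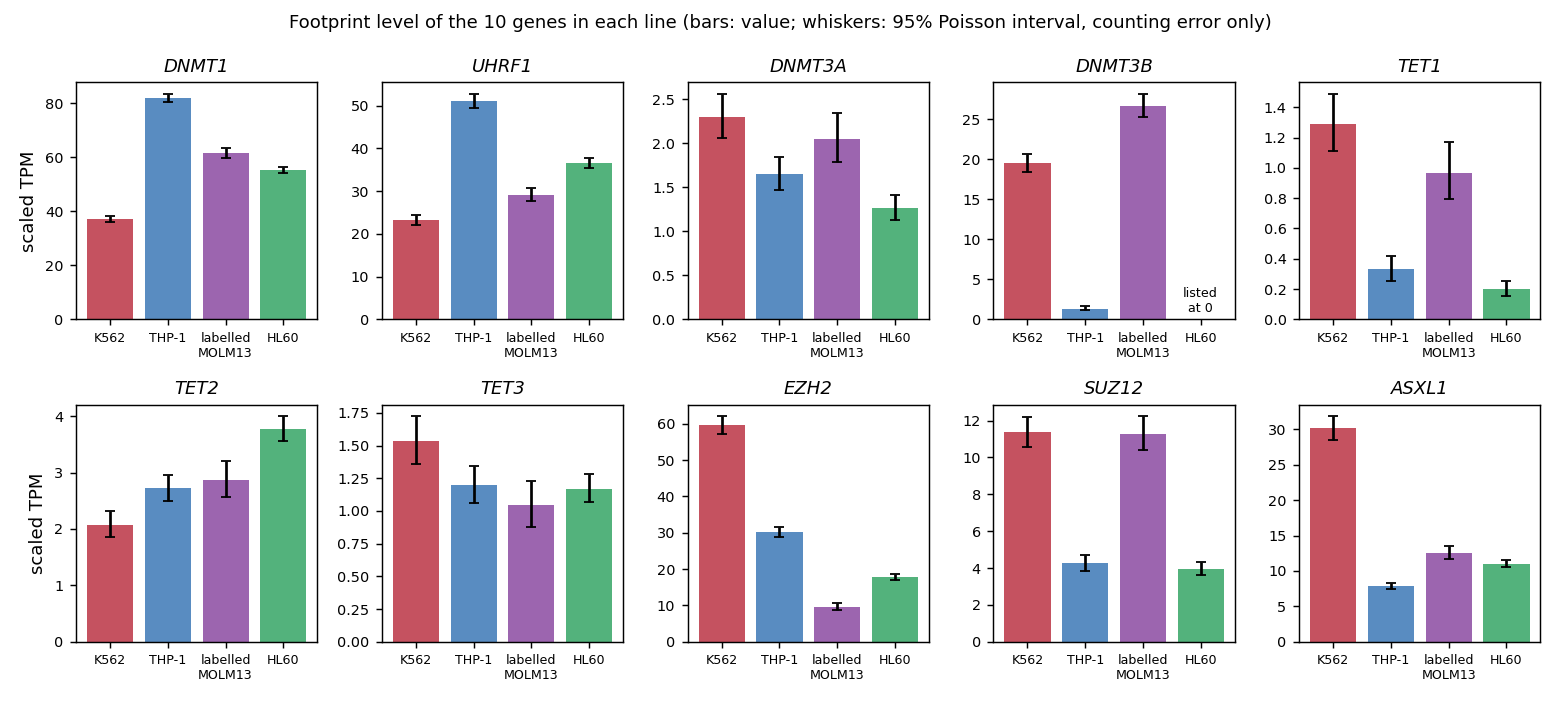
Scaled TPM (y axis, linear, a scale of its own for each gene) of the 10 genes in the 4 lines (x axis), 1 library per line; bars are values and whiskers are 95% Poisson intervals for counting error. DNMT1 and UHRF1 peak in THP-1 cells, DNMT3B stands at 19.5 in K562 and 26.7 in the MOLM13-labelled library and is listed at 0 in HL60, and EZH2 and ASXL1 are highest in K562.

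DNMT1 and UHRF1 are known targets of E2F factors, so the RefSeq promoter windows (250 bases before to 50 after the annotated start) were searched for an 8-base E2F-type motif, TTTCCCGC, TTTGGCGC, TTTCGCGC or TTTGCCGC, on both strands. All 10 genes matched an entry. DNMT1, UHRF1, EZH2 and SUZ12 held a match, 4 of 10, against 4.67% of 13965 protein-coding promoters. A match is a string of letters and not a measured binding site. The windows of the 2 maintenance genes are shown because these genes shared the highest and the lowest line; each holds 1 match, in capitals, on the GRCh38.p14 build (UHRF1 chr19:4909251-4909550, plus strand; DNMT1 chr19:10194904-10195203, minus strand).
UHRF1 promoter: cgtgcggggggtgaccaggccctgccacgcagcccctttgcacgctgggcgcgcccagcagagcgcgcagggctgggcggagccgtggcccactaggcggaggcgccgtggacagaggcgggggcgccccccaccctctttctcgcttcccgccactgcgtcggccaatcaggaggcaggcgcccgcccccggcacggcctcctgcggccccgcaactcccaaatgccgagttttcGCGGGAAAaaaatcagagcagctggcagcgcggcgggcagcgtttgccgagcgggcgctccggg
DNMT1 promoter: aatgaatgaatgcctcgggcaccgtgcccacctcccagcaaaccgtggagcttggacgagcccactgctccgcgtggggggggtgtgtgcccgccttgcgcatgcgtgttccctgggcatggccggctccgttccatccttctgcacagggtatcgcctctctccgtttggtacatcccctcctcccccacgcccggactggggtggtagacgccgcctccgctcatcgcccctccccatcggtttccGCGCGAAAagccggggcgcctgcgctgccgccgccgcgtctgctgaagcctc

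The de novo methyltransferases had opposite degrees of variation. DNMT3A (chr2:25227855-25342590, minus strand) was low in every line, with 2.30 [2.06 to 2.57] scaled TPM in K562, 1.65 [1.47 to 1.84] in THP-1 cells, 2.05 [1.79 to 2.34] in the MOLM13-labelled library and 1.26 [1.13 to 1.41] in HL60. Its intervals overlapped between K562 and the MOLM13-labelled library and between that library and THP-1, while HL60 lay below the others. DNMT3B (chr20:32762385-32809356, plus strand) had 19.5 [18.4 to 20.6] scaled TPM in K562, 1.35 [1.11 to 1.61] in THP-1 cells, 26.7 [25.3 to 28.2] in the MOLM13-labelled library, and was listed at 0 in HL60. HL60 was the deepest library. DNMT3B was the 1 gene of the 10 that was listed at 0 in any line, against 35.7% of the 12582 genes. DNMT3B had 8.48 times the scaled TPM of DNMT3A in K562, 0.82 times in THP-1 cells and 13.0 times in the MOLM13-labelled library. In all 3 libraries that had it, its coverage was assigned to 1 transcript of 4336 bases (ENST00000328111.6), so its levels rest on the same length in each. DNMT3L, the catalytically inactive partner of the de novo enzymes in germ cells, was listed at 0 in all 4 lines.

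The 2 genes could be told apart by fragments of this length. They have 11 coding exons of equal number and length (12 to 22), in which 800 of 1168 aligned bases were identical (68.5%) and the longest identical run was 17 bases. No 29-base word was shared between any of the 10 genes. Exon 17 is shown because it had the highest footprint density of DNMT3B in both lines that had most of it, with 249 footprint equivalents in K562 and 266 in the MOLM13-labelled library, against 7.79 in THP-1. The exons (GENCODE release 29, hg38; DNMT3B chr20:32800153-32800298, plus strand; DNMT3A chr2:25241562-25241707, minus strand) were identical at 99 of 146 bases, in capitals, with a longest run of 11.
DNMT3B exon 17: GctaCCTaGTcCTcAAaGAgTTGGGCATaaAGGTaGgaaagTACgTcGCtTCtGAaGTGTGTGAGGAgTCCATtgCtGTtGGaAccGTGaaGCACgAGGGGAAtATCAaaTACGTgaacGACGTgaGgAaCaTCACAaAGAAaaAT
DNMT3A exon 17: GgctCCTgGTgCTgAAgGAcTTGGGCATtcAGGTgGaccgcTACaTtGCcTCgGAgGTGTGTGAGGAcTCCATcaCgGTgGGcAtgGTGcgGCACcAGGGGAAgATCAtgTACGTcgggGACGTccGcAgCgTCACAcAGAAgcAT

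The TET genes were all low. TET2 was the highest and TET1 the lowest of them in every line, while the order of lines differed between the genes. In K562 and the MOLM13-labelled library the intervals of TET1 and TET3 overlapped, so their order there is within counting error. TET1 (chr10:68560337-68694487, plus strand) had 1.29 [1.11 to 1.49] scaled TPM in K562, 0.33 [0.25 to 0.42] in THP-1 cells, 0.97 [0.79 to 1.17] in the MOLM13-labelled library and 0.20 [0.15 to 0.25] in HL60. TET2 (chr4:105145875-105279816, plus strand) had 2.08 [1.85 to 2.32] in K562, 2.73 [2.504 to 2.963] in THP-1 cells, 2.88 [2.57 to 3.21] in the MOLM13-labelled library and 3.78 [3.56 to 4.00] in HL60. TET3 (chr2:73984910-74108176, plus strand) stayed between 1.05 and 1.53 scaled TPM in the 4 lines, and only K562, at 1.53 [1.36 to 1.73], had an interval above those of all others. Intervals overlapped between K562 and the MOLM13-labelled library and between THP-1 and HL60 for TET1, and between THP-1 and the MOLM13-labelled library for TET2. TET1 and TET2 had opposite end lines: K562 was highest for TET1 and lowest for TET2, and HL60 was lowest for TET1 and highest for TET2. The ratio of TET2 to TET1 in scaled TPM was 1.61 in K562, 8.27 in THP-1 cells, 2.97 in the MOLM13-labelled library and 19.1 in HL60. TET1 rested on 60.3 footprint equivalents in HL60 and 64.1 in THP-1 cells, so its interval there spans a large part of its value.

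Coverage of TET2 also lay outside its coding bases. The density per base in its exon 1, which has no coding bases and 687 bases in all, was 1.81 times that in its coding exons in K562, 1.08 times in THP-1 cells, 2.58 times in the MOLM13-labelled library and 0.77 times in HL60. Over all genes with such exons, the medians were 0.157 in K562, 0.323 in THP-1 cells, 0.146 in the MOLM13-labelled library and 0.286 in HL60. Its last exon, which holds 1469 coding bases of 4769, had a density of 0.17 times that of the earlier coding exons in K562, 0.56 times in THP-1 cells, 0.20 times in the MOLM13-labelled library and 0.70 times in HL60. The medians of this ratio over all genes were 0.094, 0.112, 0.101 and 0.114 in the same order, so TET2 lay above them in every line. The levels of TET2 given above hold coverage outside the annotated coding region.

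EZH2 ranged more widely over the lines than SUZ12. EZH2 (chr7:148807383-148884321, minus strand) had 59.6 [57.2 to 62.1] scaled TPM in K562, 30.2 [28.8 to 31.6] in THP-1 cells, 9.59 [8.66 to 10.6] in the MOLM13-labelled library and 17.8 [16.999 to 18.549] in HL60. No 2 lines had overlapping intervals, and the highest was 6.22 times the lowest. SUZ12 (chr17:31937007-32001038, plus strand) had 11.4 [10.6 to 12.2] in K562, 4.28 [3.87 to 4.73] in THP-1 cells, 11.3 [10.4 to 12.2] in the MOLM13-labelled library and 3.97 [3.65 to 4.31] in HL60. K562 and the MOLM13-labelled library did not differ beyond their intervals, nor did THP-1 and HL60. The ratio of EZH2 to SUZ12 in scaled TPM was 5.25 in K562, 7.04 in THP-1 cells, 0.85 in the MOLM13-labelled library and 4.47 in HL60. EZH1, the other catalytic subunit of PRC2, had 3.96 scaled TPM in K562, 1.90 in THP-1 cells, 2.91 in the MOLM13-labelled library and 2.39 in HL60, and the ratio of EZH2 to EZH1 was 15.1, 15.9, 3.29 and 7.42 in the same order. EED, the third core subunit, was highest where EZH2 was lowest, with 37.0 in K562, 30.2 in THP-1 cells, 55.8 in the MOLM13-labelled library and 33.0 in HL60.

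ASXL1 (chr20:32358330-32439319, plus strand) had 30.1 [28.5 to 31.9] scaled TPM in K562, 7.87 [7.42 to 8.34] in THP-1 cells, 12.6 [11.7 to 13.5] in the MOLM13-labelled library and 10.98 [10.496 to 11.483] in HL60. Its highest level was 3.83 times its lowest, but by aligned bases per 1000000 the values were 73.2 [69.2 to 77.5] in K562, 52.1 [49.1 to 55.2] in THP-1 cells, 57.9 [53.9 to 62.2] in the MOLM13-labelled library and 60.3 [57.7 to 63.1] in HL60, which is 1.41 times from highest to lowest. K562 stayed highest on both scales. The gap between the scales went with the length of the transcripts that the authors' assignment used. In K562, 7.11% of ASXL1's aligned bases were on a transcript of 355 bases that had none in the other lines. That short transcript alone held 16.5 of the 30.1 scaled TPM of ASXL1 in K562. A transcript of 3146 bases had 14.2% of the aligned bases in K562, but 19.9% in HL60. In HL60, 36.3% were on a transcript of 8056 bases, against 2.37% in K562.

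For EZH2 the 2 scales gave the same order of lines. Aligned bases per 1000000 were 138 in K562, 81.0 in THP-1 cells, 29.7 in the MOLM13-labelled library and 63.9 in HL60, a range of 4.65 times. Here too the assigned transcripts differed. A transcript of 3641 bases (ENST00000492143.5) had 1.48% of EZH2's aligned bases in K562, 54.6% in THP-1 cells, 100% in the MOLM13-labelled library and 99.9% in HL60, while one of 2654 bases (ENST00000320356.7) had 86.6% in K562. Fragments of this length rarely tell such transcripts apart, and the part of the assignment in the TPM difference was not tested beyond the second scale.

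**Figure D2:**
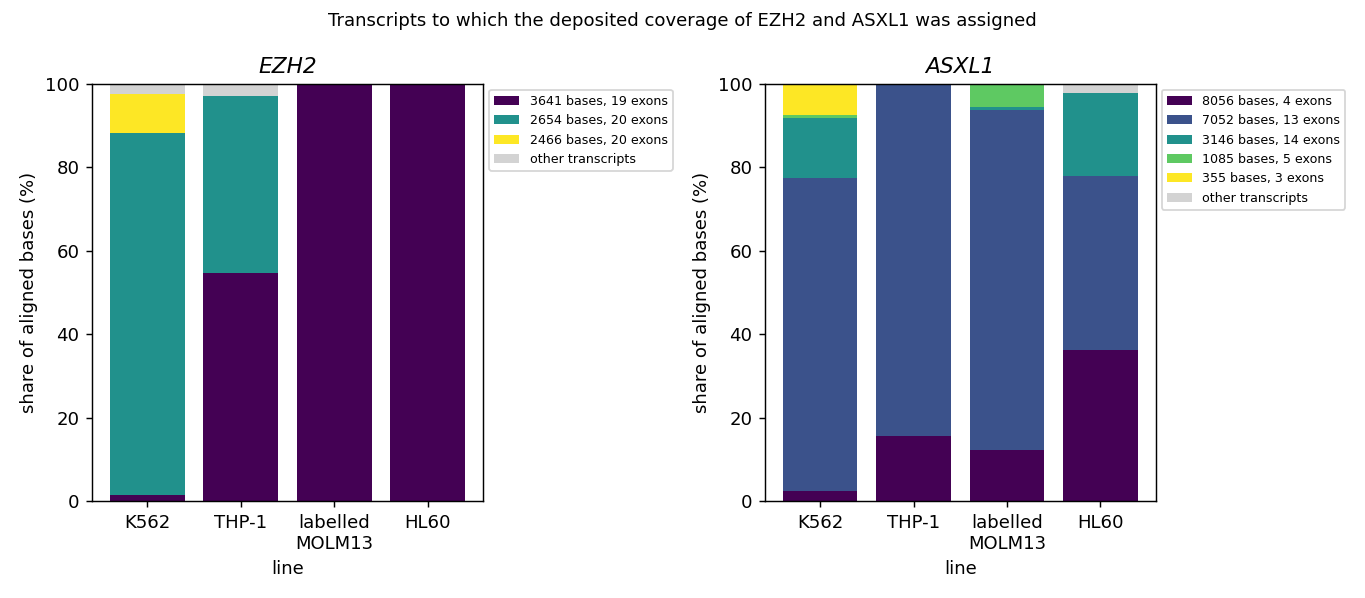
Share of aligned bases (y axis, %) of EZH2 and ASXL1 assigned to each transcript in the 4 lines (x axis); colors are transcripts with at least 5% in any line, named by length and number of exons, and grey is the rest. In EZH2, K562 is mostly on the transcript of 2654 bases and the MOLM13-labelled library and HL60 are on the one of 3641 bases.

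By the rule of size used for calls, a high call asks for a log2(scaled TPM + 1) 2 or more units over that of every other line, and a low call for one 2 or more units under. None of the 10 genes was called in any line, against 14.2% of the 12582 protein-coding genes. At a distance of 1, ASXL1 was called high in K562, as were 5.17% of all genes, and DNMT3B low in HL60, as were 5.33%. These are 2 of 10 genes with a call in some line, against 37.6% of all genes. By aligned bases at a distance of 1 the 2 calls were DNMT3B low in HL60 and EZH2 low in the MOLM13-labelled library, against 43.4% of all genes. The median log2 range over the 4 lines was 1.11 for the 10 genes and 1.57 for all genes, and by aligned bases 0.95 and 1.82.

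In pairs of lines, 2 of the 10 genes were at least 2 apart on the log2 scale, against 36.5% of all genes. DNMT3B was higher in K562 than in THP-1 (6.02% of all genes were) and than in HL60 (8.32%). It was also higher in the MOLM13-labelled library than in THP-1 (6.71%) and than in HL60 (9.45%). EZH2 was higher in K562 than in the MOLM13-labelled library (4.99%). Without that library, 2 pair differences were left of 5, both of DNMT3B in K562, and DNMT3B was then called high in K562. With fewer lines to exceed, that call is easier to reach, and the share of all genes called this way was not computed. By aligned bases TET1 joined them, higher in K562 than in HL60, and 45.8% of all genes were apart in some pair.

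Against the mean of the other 3 lines, DNMT3B differed by 2.35 in K562, -1.82 in THP-1 cells, 2.93 in the MOLM13-labelled library and -3.46 in HL60 on the log2(scaled TPM + 1) scale, the widest spread of the 10. EZH2 differed by 1.72 in K562, 0.44 in THP-1 cells, -1.63 in the MOLM13-labelled library and -0.53 in HL60. ASXL1 differed by 1.46 in K562, but by 0.36 on the log2 scale of aligned bases per 1000000. The other 7 genes lay within 1 of the mean of the other lines in every line by scaled TPM. By aligned bases per 1000000, TET1 passed 1, with 1.37 in K562 and -1.37 in HL60, against 0.65 and -0.60 by scaled TPM.

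**Figure D3:**
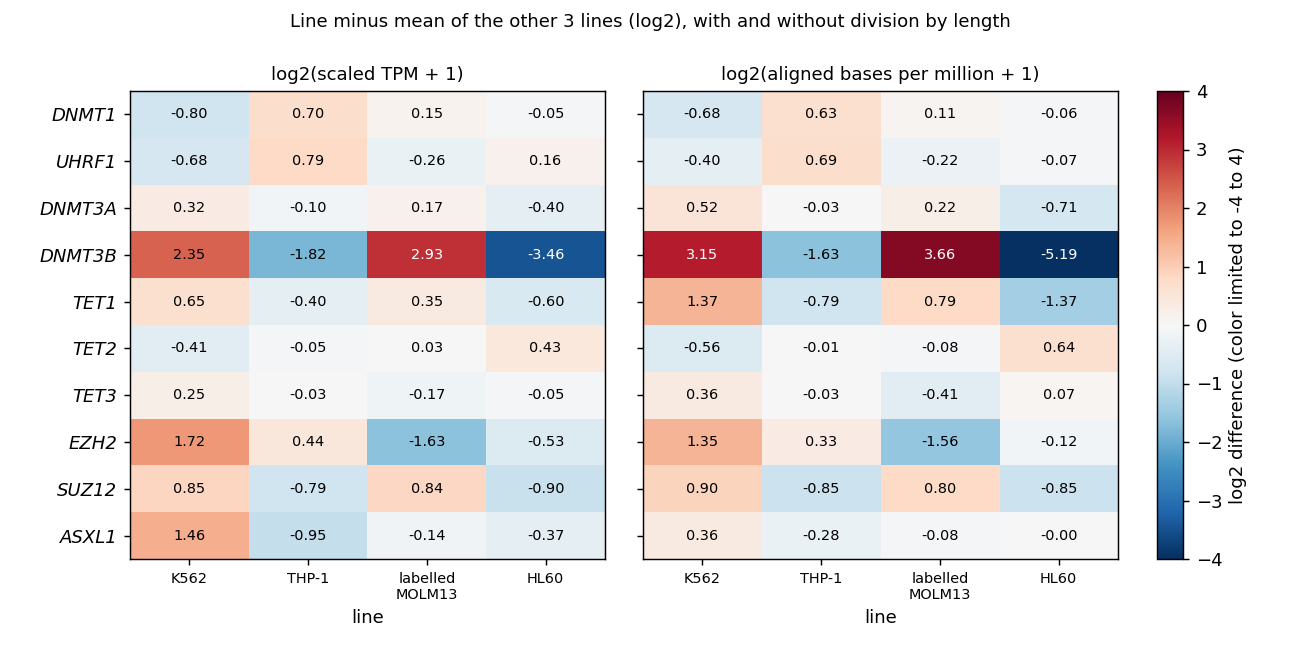
Log2 difference of each line (columns) from the mean of the other 3 lines for the 10 genes (rows), left from scaled TPM and right from aligned bases per 1000000; red is higher and blue lower, with color limited to differences of 4. DNMT3B has the strongest colors on both sides, and the ASXL1 value in K562 is 1.46 on the left and 0.36 on the right.

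DNMT3A, DNMT3B, TET1, SUZ12 and ASXL1 were higher in both K562 and the MOLM13-labelled library than in both THP-1 and HL60, 5 of 10 genes by scaled TPM and 4 of 10, without ASXL1, by aligned bases. This pattern was picked out after the values were seen. It held for 23.7% of the 12582 genes by scaled TPM and 22.8% by aligned bases. The same split divides the libraries by depth, K562 and the MOLM13-labelled library being the 2 shallower ones, and by the granulocyte and monocyte markers. The part of either was not tested.

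Footprints could be followed along the exons of these genes, which exposed a limit on UHRF1 and SUZ12. Of the 3937 words of 29 bases in the UHRF1 transcript used, 1209 (30.7%) were also found in the processed pseudogene AC112777.1 on chromosome 12. UHRF1 has 17 exons, and exons 12, 14, 15 and 16, of 580 bases in all, had 100% of their words shared and were listed at 0 in all 4 libraries. Exon 17, which holds the end of the coding region, was also at 0 in all 4. Only 144 of its 1494 bases are coding, and 120 of its 1466 words (8.19%) were shared. How many of these lie in its coding part was not computed. Exon 12 is shown next to exon 11, which also had shared words (63.3%) but kept footprints, 182 in K562, 139 in THP-1 cells, 147 in the MOLM13-labelled library and 126 in HL60. These counts were not corrected for library depth. Capitals mark bases inside a shared word (GENCODE release 29, hg38, plus strand; exon 11 chr19:4947105-4947211, exon 12 chr19:4950611-4950773).
UHRF1 exon 11: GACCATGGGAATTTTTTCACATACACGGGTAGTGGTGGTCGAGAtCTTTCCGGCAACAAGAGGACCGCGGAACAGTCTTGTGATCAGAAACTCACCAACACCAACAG
UHRF1 exon 12: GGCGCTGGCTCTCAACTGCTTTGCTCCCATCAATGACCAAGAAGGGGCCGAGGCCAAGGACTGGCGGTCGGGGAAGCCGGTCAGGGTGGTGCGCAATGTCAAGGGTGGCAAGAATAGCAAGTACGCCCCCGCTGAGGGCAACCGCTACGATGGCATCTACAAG

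In SUZ12, 530 of 3949 words (13.4%) were shared, 525 of them with the pseudogene SUZ12P1 on the same chromosome. Exons 3, 5 and 8, with 100% of words shared and 257 bases in all, held 1.93 footprints in K562, 6.55 in THP-1 cells, 0 in the MOLM13-labelled library and 9.45 in HL60. The 4 exons with at least 50% of their words shared had 5.50 footprints per kb in K562, 18.7 in THP-1 cells, 0 in the MOLM13-labelled library and 48.9 in HL60. The other 11 exons had 194 in K562, 96.7 in THP-1 cells, 151 in the MOLM13-labelled library and 139 in HL60. These densities, and the counts of footprints and aligned bases given beside them, were not corrected for library depth. They compare exons within a library and not the lines. SUZ12P1 itself had 1315 aligned bases for K562, 2860 in THP-1 cells, 371 in the MOLM13-labelled library and 3283 in HL60. Exon 7, in which only part of the sequence is shared, and exon 10, in which none is, are shown as a contrast: exon 7 held 7.72 footprints in HL60 and 0 in the other lines, and exon 10 held 43.1 in K562, 18.3 in THP-1 cells, 86.9 in the MOLM13-labelled library and 26.1 in HL60 (plus strand; exon 7 chr17:31976521-31976614, exon 10 chr17:31993242-31993333; capitals as above).
SUZ12 exon 7: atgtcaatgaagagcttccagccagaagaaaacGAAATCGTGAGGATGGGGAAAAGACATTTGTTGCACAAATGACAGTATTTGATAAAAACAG
SUZ12 exon 10: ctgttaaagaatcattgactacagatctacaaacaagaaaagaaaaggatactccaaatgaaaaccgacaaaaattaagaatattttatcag

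TPM divides by the whole transcript length, these exons included. Over the exons that are wholly coding and have no shared word, chosen after the values were seen, UHRF1 had 75.6 footprints per kb per 1000000 over 5 exons in K562, 110 in THP-1 cells, 81.9 in the MOLM13-labelled library and 87.1 in HL60, the same order of lines as before. SUZ12 had 20.6 over 8 exons in K562, 6.36 in THP-1 cells, 29.1 in the MOLM13-labelled library and 7.09 in HL60, so that the MOLM13-labelled library came above K562 while both stayed above THP-1 and HL60. The other genes shared fewer words: 97 in EZH2, 70 in TET1, 40 in DNMT3A, 15 in TET2, and 0 in DNMT1, DNMT3B, TET3 and ASXL1. Among overlapping genes on the same strand, S1PR2 within DNMT1 had 438 aligned bases in K562 and was listed at 0 elsewhere.

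**Figure D4:**
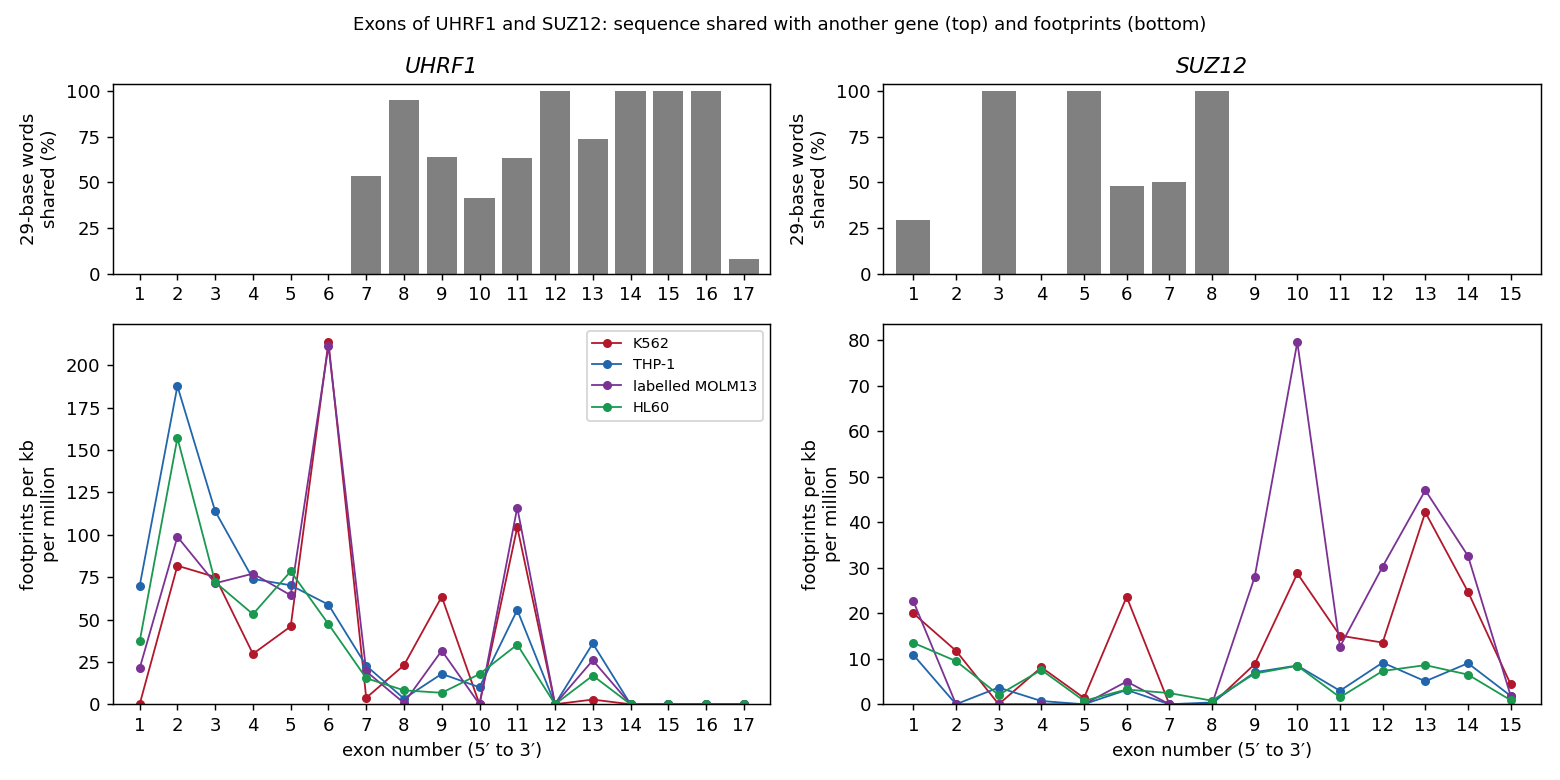
Top, share of the 29-base words of each exon of UHRF1 and SUZ12 that also occur in another gene's transcripts (%); bottom, footprints per kb per 1000000 in the same exons in the 4 lines, 1 library each, by exon number. Of the exons at 100% in the top panels, 12, 14, 15 and 16 of UHRF1 are at 0 in the bottom panels. Exons 3, 5 and 8 of SUZ12 are at 3.67 or below. In THP-1 cells SUZ12 exon 3, at 3.67, lies above exon 11, at 2.96, which has no shared words.

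Along the coding sequence, UHRF1, EZH2 and ASXL1 had more of their footprints at the 5′ end than the median gene of the library in every line. Coverage is deposited per exon, so it was taken as even within each exon. The first 25% of EZH2's coding bases held 40.5% [38.4 to 42.5, 95% Wilson interval] of its coding footprints in K562, 53.6% [51.1 to 56.0] in THP-1 cells, 56.8% [51.4 to 62.0] in the MOLM13-labelled library and 47.6% [45.3 to 50.0] in HL60. Over all genes with at least 100 coding footprints the median share was 29.3% in K562, 34.0% in THP-1 cells, 30.0% in the MOLM13-labelled library and 32.6% in HL60, with 90th percentiles of 51.8%, 55.4%, 50.7% and 52.9%. EZH2 therefore lay above the 90th percentile in the MOLM13-labelled library only. In that library exons 9, 13, 17, 18 and 19 of EZH2 were at 0.

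The first 25% of ASXL1's coding bases held 57.5% [54.0 to 60.9] of its coding footprints in K562, 43.9% [40.4 to 47.5] in THP-1 cells, 48.1% [44.1 to 52.2] in the MOLM13-labelled library and 35.6% [33.0 to 38.2] in HL60. K562 was above the 90th percentile of its library, and its interval overlapped with none of the others. The last 25% held 12.5% [10.4 to 15.0] in K562, 18.2% [15.6 to 21.2] in THP-1 cells, 14.3% [11.7 to 17.4] in the MOLM13-labelled library and 19.8% [17.8 to 22.1] in HL60. In exon 12, the last one and the largest by far, footprint density ranged from 4.85 to 5.90, with 5.29 footprints per kb per 1000000 in K562, 4.85 in THP-1 cells, 5.78 in the MOLM13-labelled library and 5.90 in HL60. In exon 4 it was 67.0 in K562, 10.2 in THP-1 cells, 34.8 in the MOLM13-labelled library and 11.5 in HL60. The ASXL1 exon densities were corrected for depth but not divided by the factor per library. Exon 4 was picked out as the exon with the highest K562 value. K562 was not highest in every upstream exon: exon 2 had 20.0 in K562, 63.5 in THP-1 cells, 44.9 in the MOLM13-labelled library and 56.6 in HL60, and exon 9 was at 0 in K562. K562 has been described as carrying a truncating ASXL1 variant; no variant was looked at here, and its part was not tested.

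DNMT1 had 37.2% of its coding footprints in the first 25% in K562, 29.2% in THP-1 cells, 38.1% in the MOLM13-labelled library and 28.1% in HL60. UHRF1 had 37.2% in K562, 60.9% in THP-1 cells, 38.1% in the MOLM13-labelled library and 56.6% in HL60, the values in THP-1 and HL60 lying above the 90th percentiles, and its last 25% held 0.25%, 2.37%, 1.94% and 1.48% in the same order, against medians of 16.2% to 16.6% for all genes. SUZ12 had 21.3% in the first 25% in K562, 32.0% in THP-1 cells, 16.1% in the MOLM13-labelled library and 40.9% in HL60. For UHRF1 and SUZ12 these shares hold the shared exons described above. In these genes the share in the first 25% had overlapping intervals in K562 and the MOLM13-labelled library and was set apart from THP-1 and HL60, upwards in DNMT1 and downwards in UHRF1 and SUZ12. This was picked out after the values were seen, EZH2 and ASXL1 did not follow it, and the medians of all genes given above were also lower in K562 and the MOLM13-labelled library.

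**Figure D5:**
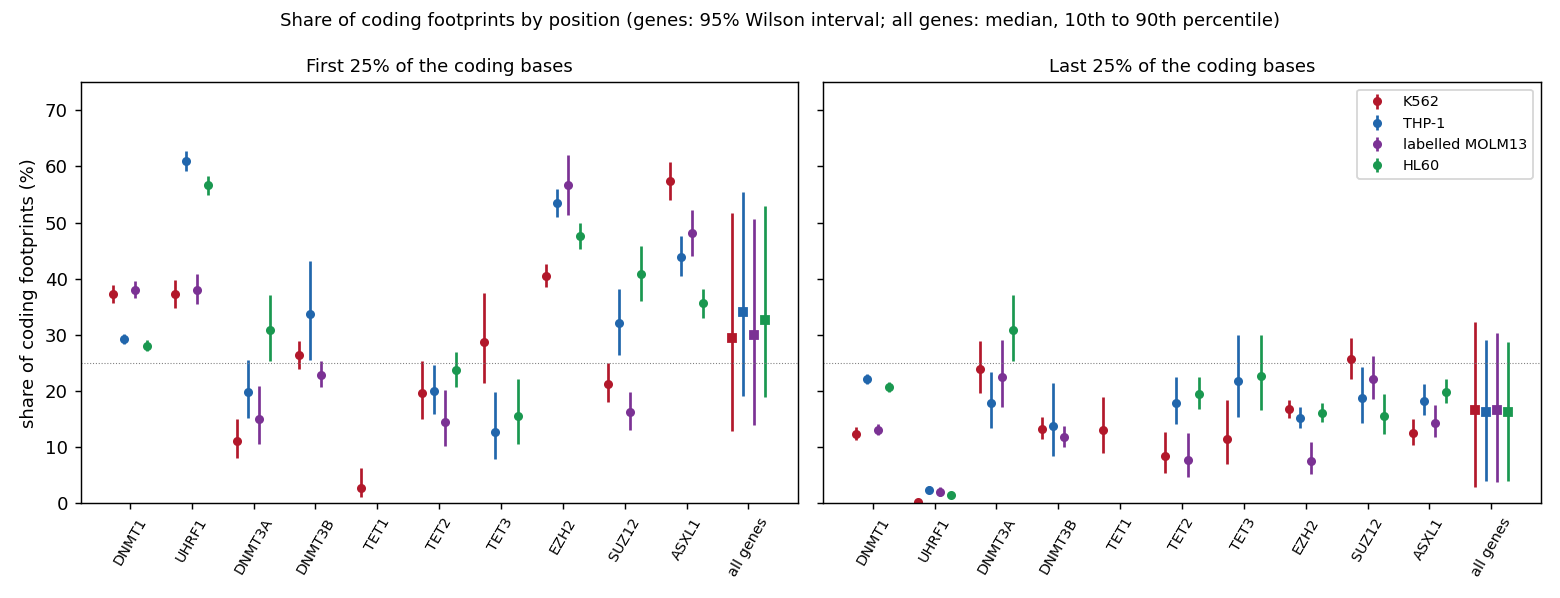
Share of coding footprints (y axis, %) in the first and the last 25% of the coding bases for the genes and lines with at least 100 coding footprints (points with 95% Wilson intervals, colored by line), and for all such genes (squares: median, with the 10th to the 90th percentile); the dotted line marks an even spread. UHRF1 in THP-1 and HL60, EZH2 in the MOLM13-labelled library and ASXL1 in K562 lie above the 90th percentile on the left, and UHRF1 lies near 0 on the right. The EZH2 point in the MOLM13-labelled library rests on the assigned transcript.

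The last coding exon, which in these genes except TET3 also holds the untranslated 3′ end, is a check on whether footprints follow the coding region. In the TET3 transcript used, 1781 of the 1784 bases of that exon were coding, so its ratios are no such check. The density per base of the last coding exon was below that of the earlier coding exons in 38 of 39 cases of a gene in a line. Over all genes it was below in 92.2% of those in K562, 93.9% in THP-1 cells, 92.6% in the MOLM13-labelled library and 93.3% in HL60, so the count is near the share of all genes. UHRF1 gives 4 of the 38 with a last exon listed at 0, coding bases included, which is no sign that footprints follow its coding region. The exception was TET3 in the MOLM13-labelled library, with a ratio of 3.17 on 43.5 coding footprints. ASXL1's last exon stood at 0.26 in K562, 0.46 in THP-1 cells, 0.36 in the MOLM13-labelled library and 0.52 in HL60, against medians of 0.094 to 0.114 for all genes.

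The genes around these regulators, in 8 lists of 99 genes, were called high or low in 4 cases among the 95 with enough coverage. Over all genes the share called in any line was 14.2%, and the counts of each list below are to be read against it. Among cofactors and readers of DNA methylation, 2 of 16 were called. LIG1, a ligase that joins Okazaki fragments, was called low in K562, as were 3.43% of all genes: it was listed at 0 there, against 28.0 scaled TPM in THP-1 cells, 32.6 in the MOLM13-labelled library and 36.1 in HL60. ZBTB38, a zinc finger protein that binds methylated DNA, was called high in K562, with 32.8 scaled TPM there, 3.97 in THP-1 cells, 6.33 in the MOLM13-labelled library and 0.79 in HL60. Among genes of demethylation and base excision 1 of 15 was called: POLB, the repair polymerase that fills excised bases, was called high in the MOLM13-labelled library, as were 1.8% of all genes, with 44.3 scaled TPM there and a listing of 0 in the other 3. D2HGDH, which clears the TET inhibitor D-2-hydroxyglutarate, was listed at 0 in K562 and the MOLM13-labelled library and had 1.44 in THP-1 cells and 3.30 in HL60.

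Of the 11 PRC2 core and accessory genes none was called. PHF19, an accessory subunit that binds methylated lysine 36 of histone H3, had the widest range over the lines, with 43.7 scaled TPM in K562, 6.64 in THP-1 cells, 6.34 in the MOLM13-labelled library and 14.02 in HL60. RBBP4, a histone-binding subunit, had 139 in K562, 170 in THP-1 cells, 64.7 in the MOLM13-labelled library and 168 in HL60, so it shared with EZH2 the lowest line. Of 21 PRC1 genes with enough coverage 1 was called: BMI1, a core subunit, was called low in HL60, as were 1.27% of all genes, with 2.51 there, against 28.2 in K562, 35.5 in THP-1 cells and 60.6 in the MOLM13-labelled library. PCGF3, a paralog of BMI1, had 5.29 in K562, 20.6 in THP-1 cells and 1.12 in HL60 and was listed at 0 in the MOLM13-labelled library.

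None of the 8 covered genes of the BAP1 complex was called. BAP1 itself had 5.94 scaled TPM in K562, 7.84 in THP-1 cells, 3.13 in the MOLM13-labelled library and 4.27 in HL60, and ASXL2, the paralog of ASXL1, had 3.90, 7.99, 4.64 and 5.24 in the same order, so both were highest in THP-1, where ASXL1 was lowest by scaled TPM. None of 6 genes of histone H3 lysine 27 demethylation was called, though KDM6A, a demethylase on the X chromosome, had 7.64 in K562, 0.16 in THP-1 cells, 9.93 in the MOLM13-labelled library and 3.17 in HL60. None of 6 genes of methyl donor supply was called either.

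No S phase gene of 12 was called even at a distance of 1, against 37.6% of all genes with a call in some line at that distance. The list's median difference from the other lines was 0.04 in K562, 0.08 in THP-1 cells, -0.05 in the MOLM13-labelled library and 0.20 in HL60, against -0.09, 0.05, 0.10 and -0.22 for all genes. DNMT1 and UHRF1, which peak in S phase, differed by -0.80 and -0.68 in K562 and by 0.70 and 0.79 in THP-1. PCNA, the replication clamp, was lowest in THP-1 cells, with 297 scaled TPM there, 737 in K562, 500 in the MOLM13-labelled library and 671 in HL60, and MKI67, a proliferation marker, was highest in THP-1 cells, with 69.8 there, 23.9 in K562, 41.5 in the MOLM13-labelled library and 47.0 in HL60.

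The genes whose pattern over the 4 lines was nearest to each regulator were named by the distance of line-centred log2(scaled TPM + 1), among 7676 genes. With 4 libraries many genes lie close by: within 0.25 there were 55 for DNMT1, 59 for UHRF1, 164 for DNMT3A, 105 for TET1, 86 for TET2, 148 for TET3, 35 for SUZ12, 12 for ASXL1 and 0 for EZH2. The nearest genes reported were HDAC4 for DNMT1, GTSE1 for UHRF1, TRAPPC6B for TET1, DAD1 for TET2, ABCF2 for TET3, CDC27 for SUZ12 and TTLL4 for ASXL1, at distances of 0.038 to 0.11. For EZH2 the nearest, LYRM2, was at 0.29. DNMT3B had no partner by this rule because it was listed at 0 in HL60.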

How the data were processed

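Ribosome footprints of 4 leukemia lines were measured with 1 library each. Per the submitters' processing notes, StringTie 2.1.5, STAR 2.7.8a, Bowtie2 2.4.2 and Trim Galore 0.6.6 were used on hg38, and per the file headers the annotation was GENCODE release 37. The deposited values, per the file headers, are TPM, FPKM and coverage per transcript and coverage per exon; FPKM was not used. Read counts were not used here, and no strand option is named in the headers.

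Transcript TPM was summed per gene and divided by a median-ratio factor from 3367 protein-coding genes whose TPM was 10 or more in each library (0.832 in K562, 1.01 in THP-1, 1.13 in the MOLM13-labelled library, 1.05 in HL60). Aligned bases were scaled likewise over 5529 genes. Division of aligned bases by 29, the modal fragment length on single-exon transcripts, gave footprint equivalents and Poisson intervals. Fragments are not independent molecules, since no molecular identifiers were used here.

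A call also needs at least 600 aligned bases in the higher lines. Gene types, coding regions and exon sequences came from GENCODE release 29 where the exons were the same as in the files; TET1 had no such transcript, so its coding parts inside the files' exons were used. Profiles took the transcript with the longest coding region. Sequences of promoters came from RefSeq. Scripts were tested on simulated data (Python 3.11.15, pandas 2.3.3, NumPy 2.4.6, SciPy 1.17.1, Matplotlib 3.10.9). The 10 genes, the lists and the settings were chosen with earlier results of these data known. Named genes are all 10 members, each called list gene and up to 3 others per list with the widest range, and the nearest patterns; DNMT3L, EZH1, EED, BAP1, ASXL2 and PCNA were named for their roles after their values were seen. Some results that this rule would name are not reported here.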

Additional observations from a re-analysis of the deposited data

How the results depend on the processing

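No paired analysis was possible because each line has 1 library, and no replicate could be left out for the same reason. None of the 10 genes was called high or low, and 1 was when aligned bases were not divided by length (DNMT3B), at a pseudocount of 0.1 (DNMT3B), with transcripts that have an annotated coding region only (DNMT1) and without the MOLM13-labelled library (DNMT3B); at a log2 distance of 1 there were 2. The coding-region alternative misjudges DNMT1, whose main transcripts are in release 37 alone and have no coding region in release 29. The 5 differences between pairs of lines became 8 with coding transcripts only, 2 without the MOLM13-labelled library and 17 at a log2 distance of 1. The 4 calls among the list genes became 10 by aligned bases, 11 at a pseudocount of 0.1, 9 with coding transcripts only and 23 at a distance of 1. Over all genes, the share called in any line was 14.2% by the main rule and 37.6% at a distance of 1. For the other changed settings named here, and for the changed pair counts, the share over all genes was not computed. Those counts therefore have no background. The 7 differences of at least 1 from the mean of the other lines became 13 with TPM rescaled to 1000000 over protein-coding genes and 11 at a pseudocount of 0.1. The 38 last exons below the rest became 14 when the coverage of 1 transcript alone was used, since only 14 then had a value. The cause was not tested for the others. Of 270 recomputed differences of a gene in a line, 258 kept their sign, as did all 47 whose size was at least 1. Depth limits the low genes: TET1 in HL60 rested on 60.3 footprint equivalents.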
